A study of Mus musculus with 6 samples.

Results

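The genes described here encode the nuclear subunits of respiratory complexes I, II and III and of ATP synthase (complex V). They are the protein-coding rows of the deposited table whose symbols begin with Nduf followed by a, b, c, s or v and a digit, with Uqcr or with Atp5, or are Sdha, Sdhb, Sdhc or Sdhd. The rule took 65 of the 54556 genes: 37 for complex I, 4 for complex II, 8 for complex III and 16 for ATP synthase. The rule used names only, no measured value. RNA from pancreatic islets of C57BL/6 mice aged 8 weeks on normal chow was sequenced, in 6 libraries: 3 came from Mettl3 flox/flox mice, and 3 from mice labelled beta-Mettl3-KO, which are Mettl3 flox/flox with RIP-Cre and are called a β-cell knockout. RIP-Cre is Cre recombinase driven by the rat insulin promoter. Both groups carry the floxed alleles, no library carries Cre alone, and the labels name neither the animals nor any pooling of islets, so the p-values cover only the variation among these 6 libraries.

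Complex I takes electrons from NADH, complex II takes them from succinate, complex III passes them to cytochrome c, and complexes I and III, with complex IV, pump protons whose return drives ATP synthase. The mitochondrial genome encodes a few subunits of complexes I, III, IV and V, and every other subunit, including all of complex II, is encoded in the nucleus. In β cells, ATP made this way from glucose closes a potassium channel and so triggers insulin release. Mettl3 is the catalytic subunit of the enzyme that writes N6-methyladenosine on mRNA.

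The targeted gene did not fall in the second group. Levels are in FPKM, fragments per kilobase of gene, here scaled so that the typical gene shows no change between libraries. Mettl3 stood at 3.42, 2.89 and 3.93 FPKM in the flox/flox libraries and at 4.06, 4.20 and 4.15 in the labelled knockouts. The log2 difference was 0.25 ± 0.11 (SE) with an adjusted p of 0.12 in limma. Scaled to each library's own total, it was 0.61 (adjusted p = 0.00421 in limma), where the median over all genes was 0.36. Values per gene do not show whether particular exons are missing, and the second group is therefore called "labelled knockout" throughout. Recovered reads came to between 16398862 and 18387313 per library. Cell-type markers also differed between the groups, as reads scaled to a common library total (CPM) and summed over each list. Markers said to rise or fall had an adjusted p under 0.05 in limma on the deposited FPKM, which are scaled otherwise than CPM. The 10 β-cell markers summed to 276634 to 335434 CPM in flox/flox islets and 160886 to 173248 in the labelled knockouts. The 16 enterocyte markers summed to 196 to 211 CPM in flox/flox islets, and to 533, 2386 and 1322 in labelled knockout replicates 1, 2 and 3. In that list 13 of the 15 genes tested rose, and Alpi was at 0 in all flox/flox libraries. The 12 lymphocyte markers summed to 19.1 to 27.2 and to 585 to 788 CPM, and all 10 tested rose. The 12 acinar markers summed to 995, 3072 and 1645 CPM in flox/flox replicates 1, 2 and 3 and to 623 to 1060 in the labelled knockouts, and 11 of 12 fell. The 12 endothelial markers summed to 2237 to 2508 against 1616 to 1955 CPM, and all 12 fell. Of 7 fibroblast and stellate-cell markers tested, 5 rose and 2 fell. Of 7 macrophage markers 1 rose and 3 fell, of 5 duct markers 1 fell, of 2 muscle and fat markers 1 fell, and of 7 markers of other islet endocrine cells none passed. In bulk islets fewer cells of a type and less RNA per cell cannot be told apart, and the part these markers have in the results below was not tested.

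The promoters of these genes are known for a few shared elements, and 4 are shown because they carry one each of the outcomes found below: a complex I gene that fell (Ndufb4), a complex II gene that did not pass the test (Sdha), an ATP synthase gene that fell (Atp5e) and the complex III gene that rose (Uqcrfs1). Each is 120 bases of RefSeq sequence (GRCm38.p6), 5′ to 3′ on the gene's own strand, which is the minus strand in all 4, and ends before any annotated transcript start. Capitals mark matches to the binding words of nuclear respiratory factor NRF1 (GCGCANGCG) or of ETS factors such as GABPA (CCGGAAG), read on either strand.
Ndufb4, chr16:37654454-37654573: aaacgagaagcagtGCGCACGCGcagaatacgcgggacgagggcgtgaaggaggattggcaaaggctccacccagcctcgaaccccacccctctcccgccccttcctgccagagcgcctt
Sdha, chr13:74350281-74350400: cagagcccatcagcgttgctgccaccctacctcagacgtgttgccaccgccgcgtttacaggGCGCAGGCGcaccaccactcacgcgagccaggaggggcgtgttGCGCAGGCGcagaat
Atp5e, chr2:174464106-174464225: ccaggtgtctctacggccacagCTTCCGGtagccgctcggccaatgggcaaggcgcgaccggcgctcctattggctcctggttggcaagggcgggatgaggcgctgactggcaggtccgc
Uqcrfs1, chr13:30545363-30545482: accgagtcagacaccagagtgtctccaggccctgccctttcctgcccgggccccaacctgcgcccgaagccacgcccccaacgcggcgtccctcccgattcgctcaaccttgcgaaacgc
Ndufb4 has its NRF1 word 191 bases before the RefSeq start, Sdha has 2 at 98 and 55 bases before it, Atp5e has the ETS word at 102 bases before it, and the Uqcrfs1 stretch has none.

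Most of the 65 genes were abundant. Of these, 61 had a mean of at least 5 FPKM over the 6 libraries and 47 a mean of at least 20 FPKM. In complex I the highest was Ndufa1, an accessory subunit of the membrane arm, with a mean of 155 FPKM, and the lowest tested was Ndufb2, also of the membrane arm, with 2.06 to 2.74 FPKM across libraries. Sdhd, the small membrane anchor of complex II, led its complex at 76.2 FPKM. The highest of complex III was Uqcr10, a small subunit, with 78.0 to 91.6 FPKM, and the highest of ATP synthase was Atp5b, the catalytic β subunit, with 83.9 to 116 FPKM.

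Ndufs3, a core subunit of the part of complex I that reduces ubiquinone, Uqcrc1, a core subunit of complex III, and Atp5a1, the α subunit that alternates with Atp5b in the catalytic head, stood lowest in their complexes, Ndufs3 and Uqcrc1 by a wide margin. Ndufs3 (chr2:90894634-90904827, minus strand, GRCm38) had 3 reads in all, none of them in a flox/flox library. It was the only one of the 65 under the 1 FPKM filter, so 64 were tested. Its neighbours C1qtnf4, Kbtbd4 and Rapsn had 0 reads in all 6 libraries and Celf1 had 1. The table holds 98 rows on patch scaffolds, alternative versions of stretches of the assembly. One of these runs from 90894628 to 90904874, starts 6 bases before and ends 47 bases after Ndufs3, and held 24.7, 0.880 and 7.71 FPKM in the flox/flox libraries and 20.4, 16.6 and 1.75 in the labelled knockouts. Uqcrc1 stood at 0.176, 2.80 and 6.42 FPKM in the flox/flox libraries and at 0.394, 0.470 and 2.17 in the labelled knockouts, so replicates of 1 group differed more than the groups did. Its neighbours Nckipsd and Celsr3 had 0 reads, and 4 patch rows lie at nearby coordinates. Atp5a1 stood at 2.09, 2.58 and 2.71 against 5.55, 3.23 and 3.00 FPKM, with a patch row at nearby coordinates, whereas its partner Atp5b stood above 80 FPKM. Whether the patch scaffolds set these 3 levels was not tested, and nothing about the subunits is read from them.

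**Figure D1:**
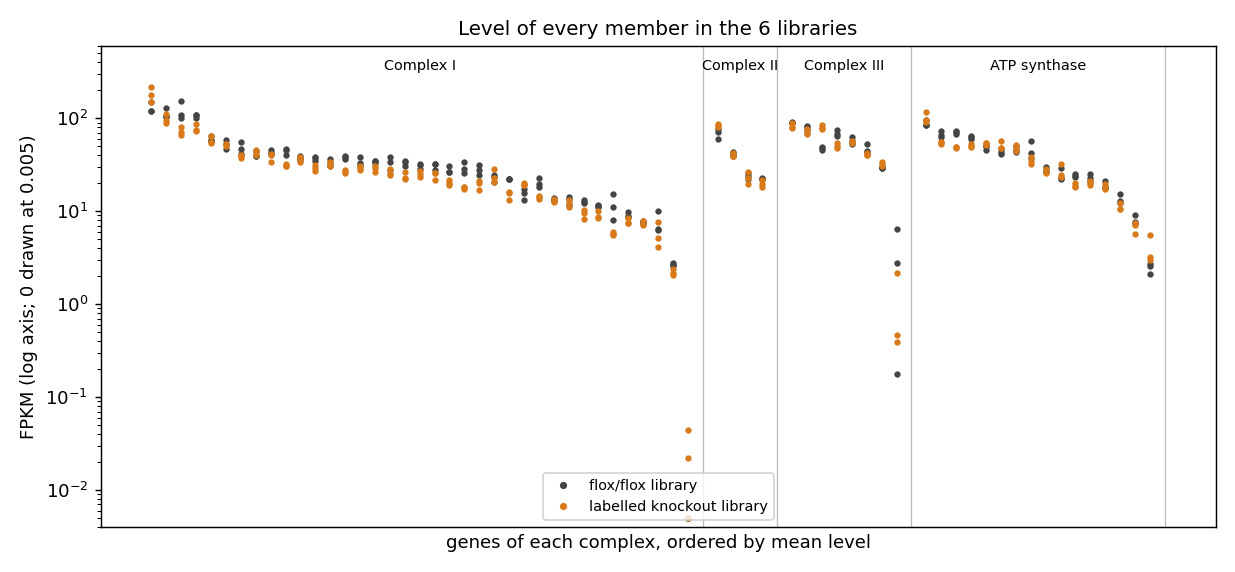
Level of each of the 65 genes in the 6 libraries (points; FPKM on a log axis, 0 drawn at 0.005), ordered by mean within each complex. Ndufs3 at the end of complex I, Uqcrc1 at the end of complex III and, less far, Atp5a1 at the end of ATP synthase lie below the rest.

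Of the 64 genes tested, 21 were lower and 2 higher in the labelled knockouts at an adjusted p under 0.05 in limma, and 41 did not pass. The median log2 difference was -0.20, against -0.0045 over all 14497 genes tested, and 51 of the 64 differences were negative. The differences were small: 55 of the 64 were under 0.5 on the log2 scale in either direction, and 44 were under 25%. Over all genes tested 34% were called, 17.2% lower and 16.9% higher, beside 32.8% lower and 3.12% higher here. Abundance matters for that reading, because abundant genes were called lower more often. Among all 1894 genes with a mean of at least 20 FPKM, 32.7% were lower and 13% higher, with a median of -0.12. Among the 47 subunit genes at that level, 34% were lower and 2.13% higher, with a median of -0.18. The share called lower was thus close to that of other abundant genes, and the share called higher was below theirs, a difference given without a test. The 2 groups of libraries did not overlap for 39 of the 64 genes, 31 with the labelled knockouts below and 8 above, where 50.5% of all genes did not overlap. With a mean of at least 20 FPKM, the groups did not overlap for 29 of the 47 subunit genes and for 1122 of all 1894 genes.

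These counts rest on how the libraries were scaled and on single libraries. Scaled to each library's own total, all genes had a median difference of 0.36, with 4.86% lower and 52.4% higher. The subunits had a median of 0.19, with 1 lower and 26 higher. The subunit median was thus -0.17 relative to that of all genes while its sign turned. Under that scaling 7 of the 21 lower genes had positive differences, none past the threshold (Ndufs7, Ndufs8, Ndufv1, Ndufb7, Atp5d, Atp5h and Atp5j). Only Ndufb9 of the 21 stayed lower past the threshold, at -0.29. Ndufs6, Ndufa11 and Atp5e were then at -0.10, -0.16 and -0.14, and Ndufb8 and Uqcrb at -0.02 each. With Ins1, Ins2, Iapp and the mitochondrial genome left out of each library's total, 22 subunit genes were lower and 2 higher. The subunit median was then -0.21, against -0.0043 over all genes, of which 16.1% were lower and 16.1% higher. Quantile normalization gave 18 lower and 8 higher, where 18.6% of all genes were lower and 15.3% higher. The subunit median was then -0.11, against -0.04 over all genes. Without labelled knockout replicate 3, 10 were lower and 1 higher, with a median of -0.19. Of all genes 9.73% were then lower and 9.45% higher, fewer than with all 6 libraries. Without labelled knockout replicates 2 and 3, which held the most enterocyte reads, the subunit median was -0.22, against 0.01 over all genes. Of the 23 calls, 11 held whichever single library was left out. These were Ndufs5, Ndufs6, Ndufa7, Ndufv3, Ndufb9, Ndufa11, Ndufc1, Ndufb8, Atp5e and Atp5j, all lower, and Uqcrfs1, higher. The calls of Ndufv1, Ndufs7, Ndufa9 and Atp5h held in 1 of those 6 fits each.

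**Figure D2:**
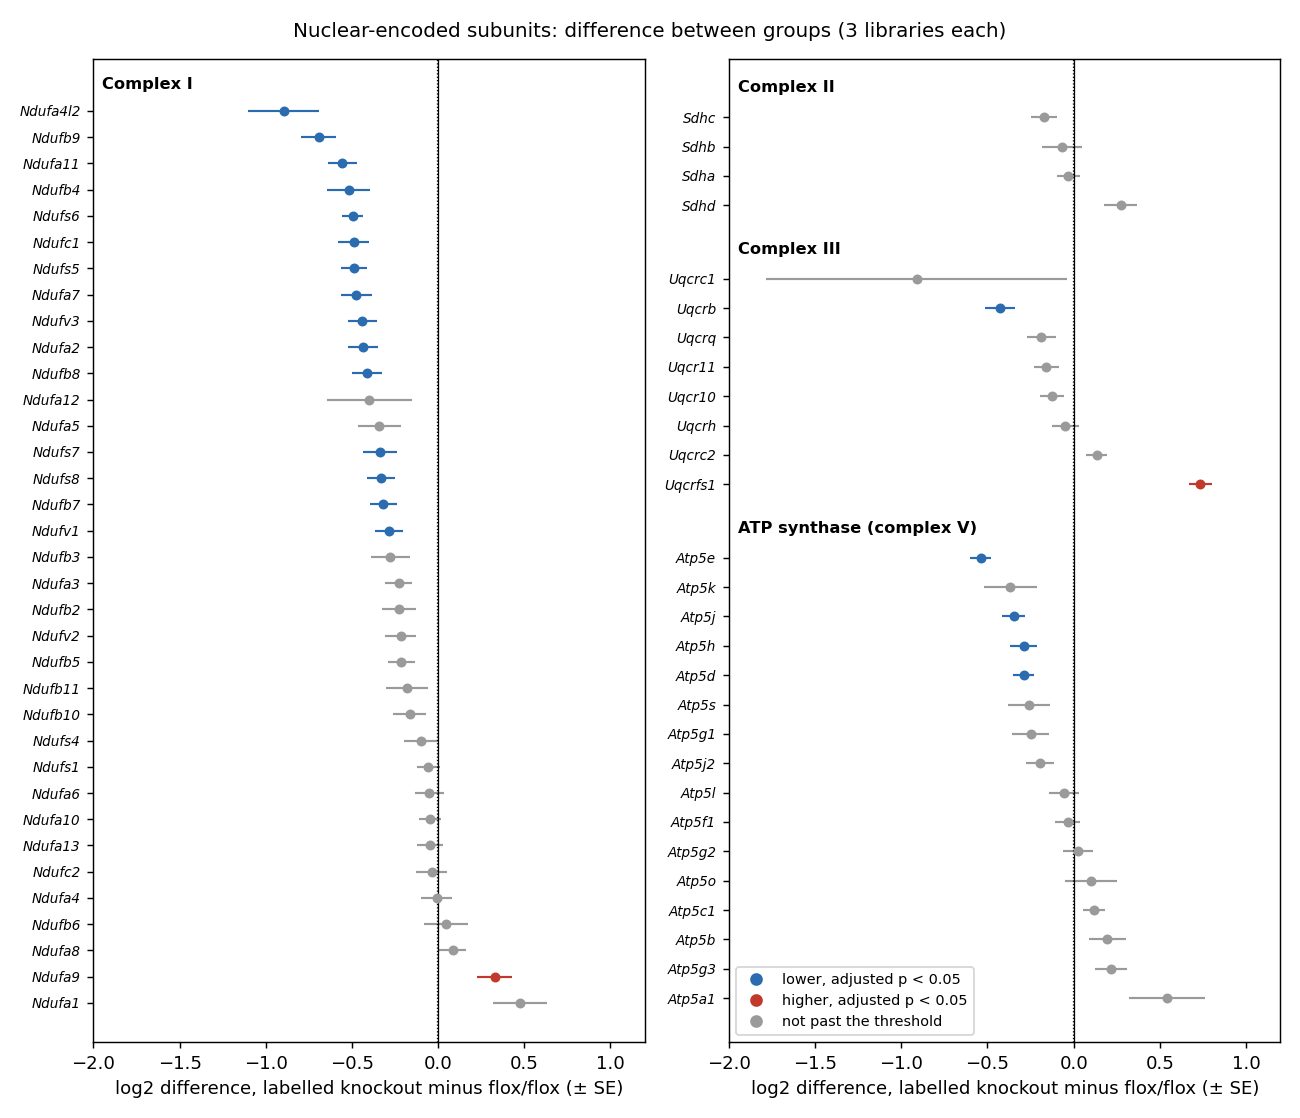
Log2 difference (labelled knockout minus flox/flox, ± SE) of 63 of the 64 genes tested, by complex; the dotted line is the median of all genes tested. Under the deposited scaling complex I lies mostly left of 0, complex II around 0, and Uqcrfs1 of complex III at 0.73.

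**Figure D3:**
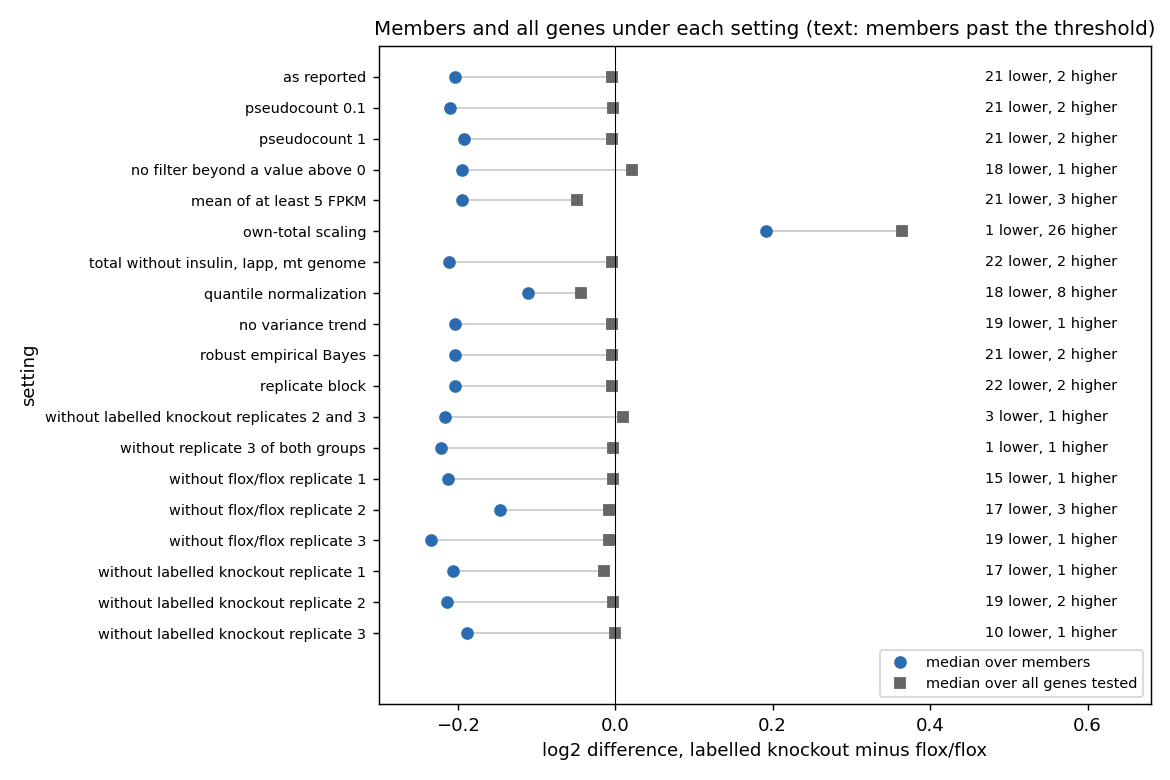
Median log2 difference over the subunit genes (circles) and over all genes tested (squares) for each setting, with the numbers of subunit genes past the threshold. The subunit median lies left of the all-gene median in every setting shown, and both move right of 0 with own-total scaling.

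The complex I names held 36 of the 64 genes tested and 16 of the 21 lower calls. Of the 36 such genes tested, 16 were lower, 1 was higher and 19 did not pass, with a median log2 difference of -0.28. So 44.4% were lower, beside 17.2% of all genes and 32.7% of those with a mean of at least 20 FPKM. These counts include Ndufa4 and Ndufa4l2, which carry the name without being complex I subunits and of which Ndufa4l2 was lower. In the matrix arm, which holds the NADH-oxidising and ubiquinone-reducing modules, 8 of 15 (53.3%) were lower and 1 higher (median -0.34). In the membrane arm, which pumps protons, 7 of 19 (36.8%) were lower and none higher (median -0.23). Summed over all 37 genes, complex I stood at 1314, 1479 and 1267 FPKM in flox/flox islets and at 1254, 1143 and 1138 in the labelled knockouts, a change of -13.0% in the mean, which turned to 15.3% with own-total scaling.

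Among the core subunits of the matrix arm, Ndufs7 and Ndufs8, which carry iron-sulfur clusters towards ubiquinone, fell by 0.34 and 0.33 on the log2 scale, and were at 0.06 and 0.07 with own-total scaling. Ndufv1, which binds NADH, fell by 0.28, and was at 0.11 with own-total scaling. The core subunits Ndufs1 and Ndufv2 differed by -0.06 (adjusted p = 0.545) and -0.22 (adjusted p = 0.104) and did not pass. The core subunits named here therefore lay between -0.34 and -0.06.

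Accessory subunits of the matrix arm surround that core. Ndufs6, a zinc-binding subunit added late in assembly, stood at 39.3, 38.5 and 36.8 FPKM against 27.3, 27.7 and 25.8, a log2 difference of -0.50 ± 0.06 (adjusted p = 0.00198). Each group lay within a few FPKM, and the gap between groups was several times that spread. Ndufa7 (34.9, 34.1 and 30.7 against 26.5, 22.5 and 22.4 FPKM), Ndufv3 and Ndufa2 fell by 0.47, 0.44 and 0.43. With own-total scaling these 3 were at -0.08, -0.04 and -0.03, none past the threshold. Ndufa9, an accessory subunit of the ubiquinone module, was the complex I gene called higher: 15.7, 17.4 and 13.3 FPKM against 18.9, 20.3 and 19.1, a log2 difference of 0.33 ± 0.10 with an adjusted p of 0.0486. Ndufa5 and Ndufa12 had differences of -0.34 and -0.40 with overlapping groups and did not pass.

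In the membrane arm Ndufb9 (chr15:58933756-58939488) showed the largest difference. It stood at 28.6, 33.8 and 26.0 FPKM in the flox/flox libraries and at 18.1, 18.3 and 17.5 in the labelled knockouts, a log2 difference of -0.69 ± 0.10 (adjusted p = 0.00345). The labelled knockouts were nearly equal and the flox/flox values spread more widely. Of its annotated exon bases, 19.5% also belong to Gm49356 on the same strand, so its reads are partly shared with that gene model. Ndufa11, which joins the membrane arm's segments, stood at 22.2, 22.3 and 22.5 FPKM against 16.2, 15.7 and 13.3, a log2 difference of -0.56 ± 0.09 (adjusted p = 0.00415). Here the flox/flox libraries were nearly equal and labelled knockout replicate 3 was the lowest. Ndufb4, Ndufc1, Ndufs5, Ndufb8 and Ndufb7, all accessory subunits of this arm, fell by 0.52, 0.49, 0.49, 0.41 and 0.32, of which Ndufb7 was at 0.07 with own-total scaling.

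The most abundant membrane arm subunit went the other way without passing the test. Ndufa1 (chrX:37187588-37191163) stood at 119, 148 and 121 FPKM in the flox/flox libraries and at 217, 149 and 177 in the labelled knockouts, a log2 difference of 0.47 ± 0.16 (adjusted p = 0.0565). The lowest labelled knockout value lay just above the highest flox/flox value. Ndufc2, Ndufa8, Ndufa10, Ndufa13 and Ndufb6 lay between -0.05 and 0.08 and did not pass. Subunits of the same arm thus differed at the RNA level by between -0.69 and 0.47.

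Of the pair outside the complex, Ndufa4 is now placed in complex IV, and Ndufa4l2 is its paralogue, known as a gene raised by hypoxia. Ndufa4 stood at 46.999, 58.1 and 52.5 FPKM against 53.0, 50.4 and 52.7, a difference of -0.01. Ndufa4l2 stood at 8.03, 15.3 and 11.1 FPKM against 6.00, 5.51 and 5.68, a log2 difference of -0.90 ± 0.21 (adjusted p = 0.0184). The groups did not overlap, the flox/flox libraries spread by nearly the size of the difference, and the call held in 3 of the 6 fits that left out 1 library.

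**Figure D4:**
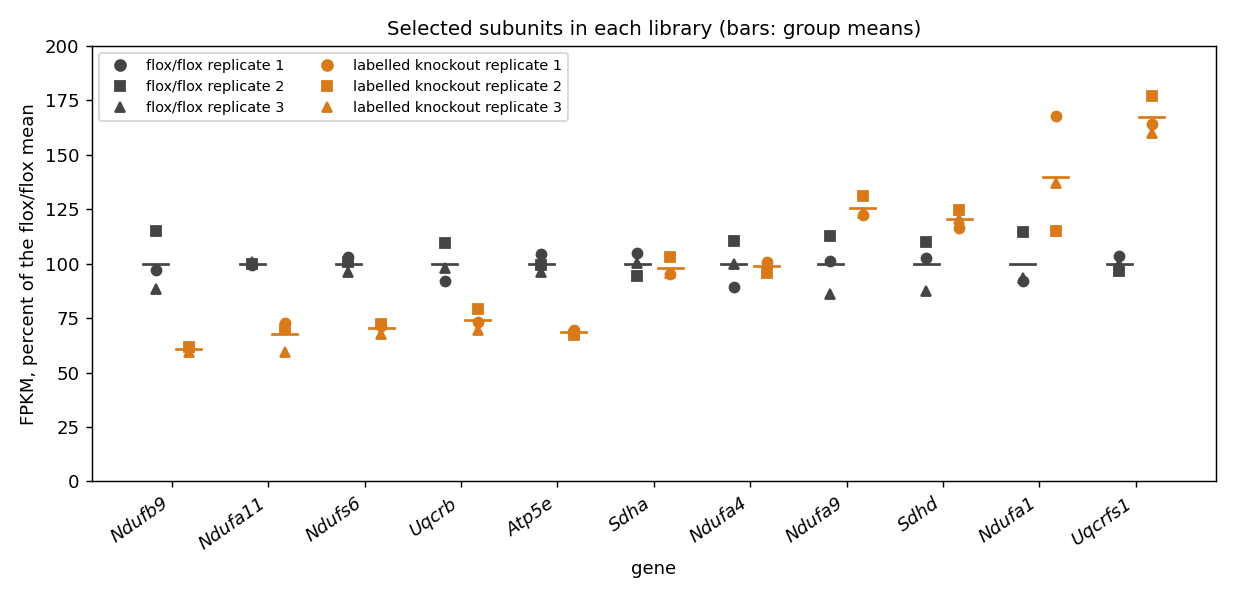
FPKM of 11 subunit genes in each library as a percent of the flox/flox mean (bars: group means; shapes: replicate numbers). Ndufb9, Ndufa11, Ndufs6, Uqcrb and Atp5e lie lower in all 3 labelled knockouts, Sdha and Ndufa4 overlap, and Uqcrfs1 lies highest.

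No gene of complex II passed the test. Complex II is also the succinate dehydrogenase of the citrate cycle, made of a flavoprotein (Sdha), an iron-sulfur subunit (Sdhb) and the membrane anchors Sdhc and Sdhd. Sdha stood at 43.4, 39.1 and 41.5 FPKM against 39.3, 42.5 and 39.5, a log2 difference of -0.03 ± 0.07 (adjusted p = 0.763). Sdhb and Sdhc differed by -0.07 and -0.17. Sdhd stood at 70.9, 75.9 and 60.5 FPKM against 80.5, 86.3 and 83.2, a log2 difference of 0.27 ± 0.10 (adjusted p = 0.0663), with no overlap between groups. Whether complex II differed from complex I in its response was not tested.

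In complex III 1 gene rose and 1 fell, so 25% were called, beside 34% of all genes. Uqcrfs1 (chr13:30540308-30545362, minus strand) encodes the Rieske iron-sulfur protein, which carries electrons from ubiquinol to cytochrome c1 and is inserted late in assembly. It stood at 49.4, 46.1 and 47.7 FPKM in the flox/flox libraries and at 78.4, 84.6 and 76.4 in the labelled knockouts, 67.2% higher on the mean, with a log2 difference of 0.73 ± 0.07 (adjusted p = 0.000699). Every labelled knockout value was above every flox/flox value by more than either group's range. The call held under all 18 alternatives, and with own-total scaling the log2 difference was 1.14. Of its 50-base windows, 0% are shared with another annotated transcript, and 9535 reads fell on it in all.

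Uqcrb, a small subunit bound to cytochrome b near a ubiquinone site, fell. It stood at 63.7, 75.7 and 67.7 FPKM against 50.7, 54.8 and 48.0, a log2 difference of -0.43 ± 0.09 (adjusted p = 0.0125), although 25.5% of its 50-base windows occur in other transcripts, mostly pseudogenes. The small subunits Uqcrq, Uqcr11, Uqcr10 and Uqcrh differed by -0.19, -0.16, -0.13 and -0.05, and the core subunit Uqcrc2 by 0.13, with none past the threshold. The summed level of complex III was 408, 443 and 418 FPKM against 422, 421 and 401, so the sum overlapped between groups. With own-total scaling it was 349, 390 and 370 against 479, 492 and 469, without overlap, a change of 29.8% in the mean.

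Among the ATP synthase genes 4 of 16 fell and none rose (median -0.13). So 25% were lower, beside 17.2% of all genes and 32.7% of those with a mean of at least 20 FPKM. In the catalytic head the ε subunit Atp5e (chr2:174461072-174464105) stood at 73.7, 70.3 and 68.1 FPKM against 49.3, 47.6 and 48.5, a log2 difference of -0.54 ± 0.06 (adjusted p = 0.00135). Both groups were tight, and the mean changed by -31.5%. The δ subunit Atp5d, its partner in the central stalk, fell by 0.29 and was at 0.11 with own-total scaling. The γ subunit Atp5c1, the stalk's rotating shaft, and the β subunit Atp5b differed by 0.12 (adjusted p = 0.214) and 0.19 (adjusted p = 0.208) and did not pass. The central stalk subunits Atp5e, Atp5d and Atp5c1 thus lay on both sides of 0, Atp5c1 without passing the test.

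In the membrane part and the outer stalk, Atp5j (coupling factor F6) and Atp5h (subunit d), which sit in the outer stalk, fell by 0.35 and 0.29, and were at 0.05 and 0.11 with own-total scaling. The b subunit Atp5f1 and Atp5o, which caps the outer stalk, differed by -0.04 and 0.10 with overlapping groups. Atp5k and Atp5l, the e and g subunits of the dimer interface, differed by -0.37 (adjusted p = 0.107) and -0.06. Of the exon bases of Atp5o, 47.9% lie in other gene models, among them a same-strand model also named Atp5o. For Atp5j, 12.7% lie in Gabpa on the opposite strand. Without known strandedness, reads cannot be fully separated from opposite-strand models, and strandedness would not separate the same-strand one.

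Atp5g1, Atp5g2 and Atp5g3 encode the ring subunit c. The last 75 residues encoded by their longest open reading frames, which make up the mature subunit, were identical in all 3 pairs, whereas 177 to 191 of the 225 underlying bases were. Atp5g1 stood at 12.1, 15.2 and 12.8 FPKM against 10.7, 12.3 and 10.5, Atp5g2 at 45.3, 49.96 and 43.6 against 51.2, 44.1 and 46.2, and Atp5g3 at 43.6, 46.3 and 41.2 against 48.3, 56.9 and 47.6. Their log2 differences were -0.25, 0.03 and 0.22, none past the threshold (adjusted p of 0.115, 0.843 and 0.109). The sources of 1 and the same protein thus showed no called change, and 36.7% of the 50-base windows of Atp5g2 occur in the pseudogene Gm10175.

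Within each group 1 library was often the highest. Flox/flox replicate 2 was the highest of its group for 45 of the 64 genes (70.3%), against 36.6% of all genes tested. Labelled knockout replicate 2 was the highest of its group for 36 (56.2%), against 37.3%. The same libraries held the most acinar and the most enterocyte marker reads of their groups, and their part in the order was not tested. Without flox/flox replicate 2, 17 genes were lower and 3 higher, and the median difference was -0.15. Of all genes 14% were then lower and 14% higher. Replicate 3 lay between the other two in 51.4% of all genes in the labelled knockouts and in 42.2% in the flox/flox group. With replicate 3 of both groups left out, 1 subunit gene was lower and 1 higher, with a median difference of -0.22, where 3.48% of all genes were higher and 2.9% lower.

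The subunits made inside mitochondria differed far more than their nuclear partners. Of the 13 mitochondrially encoded subunits 12 fell, with a median log2 difference of -1.81, and mt-Atp8 (-1.15, adjusted p = 0.169) did not pass. The 7 of complex I summed to 34816, 53874 and 37811 FPKM in the flox/flox group and to 10065, 15909 and 12817 FPKM in the labelled knockouts, 30.7% of the flox/flox mean. mt-Cytb of complex III stood at 28.7% and the ATP synthase pair at 25.6% of their own flox/flox means. That pair summed to only 146, 160 and 90.5 FPKM in the flox/flox group and to 21.5, 43.2 and 36.7 in the labelled knockouts. Why its level lay so far under the complex I sum was not tested. Summed over all 65 nuclear genes, the level was 2490, 2741 and 2419 FPKM against 2395, 2347 and 2259, a change of -8.47% in the mean, which turned to 21.3% with own-total scaling. The sum was highest in flox/flox replicate 2 for both genomes.

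**Figure D5:**
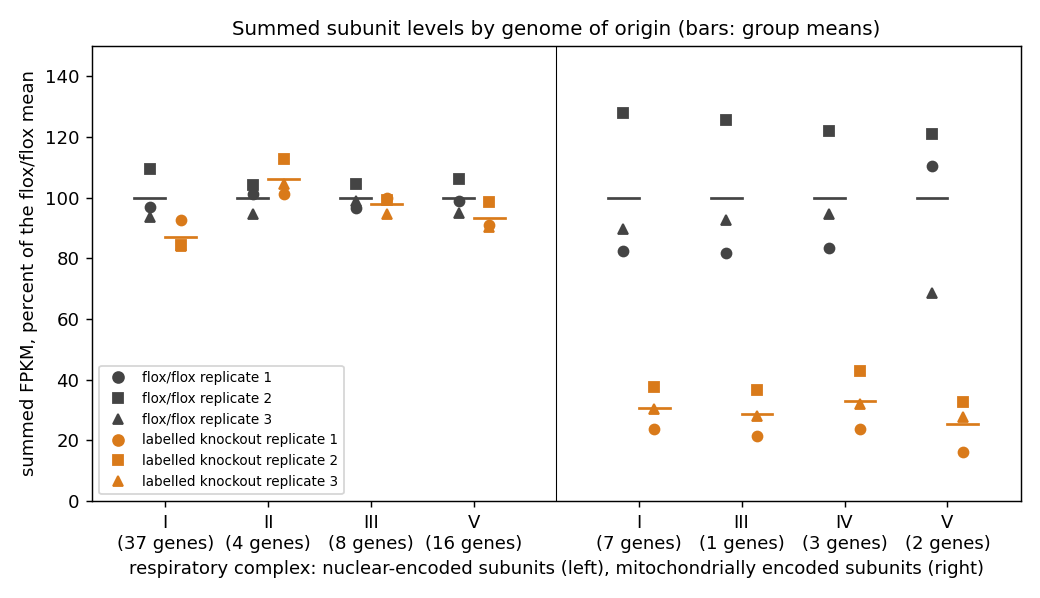
Summed FPKM of nuclear-encoded (left) and mitochondrially encoded subunits (right) in each library, as a percent of the flox/flox mean; bars are group means and shapes are replicate numbers. Under the deposited scaling, nuclear sums of the labelled knockouts lie near the flox/flox mean. Their mitochondrial sums lie between 25.6% and 32.9% of it on the mean. The mitochondrial ATP synthase pair had a flox/flox mean of 132 FPKM, against 42167 for complex I.

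Other genes of the pathway were taken from lists written by function. Of their 25 nuclear genes past the threshold, 13 stayed past it whichever single library was left out. Atpif1, Cox6c, Ndufaf8, Foxred1, Uqcc1, Cs and Pprc1 stayed past it in 1 of those 6 fits each, Cox5a and Esrra in 2, and Dmac2, Pdha1 and Gabpb1 in 4. Of 6 partner subunits outside the naming rule, such as cytochrome c1 (Cyc1) and cytochrome c (Cycs), 1 fell: Atpif1, the inhibitor of ATP synthase, by 0.24 (0.16 with own-total scaling). So 16.7% of these partners were called, beside 34% of all genes. Of the 14 nuclear subunits of complex IV, 3 fell and 1 rose, so 28.6% were called. Cox6a2, the heart and muscle form of its subunit, stood at 179, 197 and 183 FPKM against 9.88, 19.4 and 12.6, a log2 difference of -3.74 ± 0.22 (adjusted p = 0.000151). That is larger than any difference among the 64 subunit genes. Cox4i2, a tissue-restricted isoform, fell by 1.37 and Cox6c by 0.27 (0.13 with own-total scaling), and Cox5a rose by 0.52, highest in labelled knockout replicate 2.

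Of 17 complex I assembly factors, which build the complex and leave it, 5 fell and 1 rose (median -0.17), so 35.3% were called, near the 34% of all genes. Ndufaf4 rose from 4.47, 4.399 and 4.76 FPKM to 8.78, 8.27 and 7.97, a log2 difference of 0.81 ± 0.07 (adjusted p = 0.000599). Ndufaf6, Ndufaf3 and Ndufaf8 fell by 0.77, 0.54 and 0.37, and Ndufaf8 was at 0.02 with own-total scaling. Of 13 assembly factors tested for the other complexes 2 fell, both for complex III, so 15.4% were called. Uqcc2 stood at 144, 150 and 138 FPKM against 69.3, 65.1 and 68.8, a log2 difference of -1.08 ± 0.07 (adjusted p = 0.000161), and Uqcc1 fell by 0.41. These act early in the assembly of complex III, by stabilising cytochrome b.

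Of 13 genes of coenzyme Q synthesis, the carrier between complexes I or II and III, 3 fell: Coq8b by 1.38, Coq10a by 0.84 and Coq2 by 0.43. That makes 23.1% called, beside 34% of all genes. Of 18 genes of the citrate cycle and pyruvate dehydrogenase, 2 fell and 2 rose (median 0.03), so 22.2% were called. Pcx (pyruvate carboxylase) and Idh3g fell by 1.23 and 0.57, and Cs (citrate synthase) and Pdha1 rose by 0.59 and 0.25. Cs stood at 12.1, 20.2 and 14.5 FPKM in the labelled knockouts, in the same order as their enterocyte markers. The same order held in 18 of the 64 subunit genes (28.1%) and in 24.1% of all genes tested.

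Of 19 regulators of mitochondrial biogenesis tested, 4 rose and 1 fell (median 0.10), so 26.3% were called and 21.1% were higher, beside 34% and 16.9% of all genes. Esrrg and Esrra, nuclear receptors that bind promoters of these subunit genes, rose by 0.90 and 0.54, and Gabpb1 and Pprc1 rose by 0.39 each. Mterf1b, a mitochondrial transcription termination factor, fell by 0.92. Nrf1, Gabpa, Yy1 and Tfam differed by 0.14, 0.14, 0.21 and 0.07, none past the threshold, and Ppargc1a was under the filter.

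The words bound by several of these regulators stood in a larger share of the subunit promoters than of all promoters, a description with no test. A RefSeq window of 300 bases (250 before to 50 after the start) was found for 53 of the 65 genes, and not for 12, among them Ndufa2, Ndufb9, Ndufa4l2, Ndufs1, Sdhc, Uqcrb, Uqcrq, Uqcrc2, Atp5f1, Atp5s and Atp5a1. On either strand, the NRF1 word was in 35.8% of them and in 7.03% of 27025 genes with a window. The ETS word was in 24.5% against 9.93%, the YY1 word (AANATGGCG) in 18.9% against 2.76%, and the estrogen-related receptor word (TCAAGGTCA) in 3.77% against 0.466%. No word contains another, and a gene counts if any of its windows holds the word. The NRF1 word was in 5 of the 16 genes called lower and in 14 of the 34 that were not called. The ETS word was in 5 of 16 and in 7 of 34, and the YY1 word in 5 of 16 and in 4 of 34. Ndufb4 and Sdha hold 3 NRF1 words each in their windows, 1 fell and the other did not pass, and Uqcrfs1, which rose, holds none of the 4 words. Such matches describe letters, not binding.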

How the data were processed

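The authors deposited 1 table of FPKM values covering 54556 genes in 6 libraries, and per the file headers it also gives each gene's length and position. The submitters' processing notes name DESeq2 1.16.1, HISAT2 2.0.5, featureCounts 1.5.0-p3 and the GRCm38 assembly at patch 6. Settings and strandedness are not given in the sources read. Multiplied by gene length, the FPKM of a library were whole multiples of 1 value (100% within 0.1), and these multiples were taken as reads. That value matched a median-of-ratios scaling, so the deposited FPKM set the typical gene to no change and carry no measure of RNA per cell. No per-sample column was left unused (0 columns).

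Genes with a mean of at least 1 FPKM entered limma 3.58.1 (R 4.3.3), where a linear model and a trended eBayes step were fitted to log2(FPKM + 0.5). Tests were two-sided, and calls had a Benjamini-Hochberg adjusted p under 0.05 over all 14497 genes. Differences are on that log2 scale, which understates low genes, and errors are model standard errors. Between libraries of a group, chi-square per degree of freedom of the reads was 6.51 to 29.4, so no library was a plain copy of another. It was 29.4 between labelled knockout replicates 1 and 2, and 10.7 and 9.47 between each of these and replicate 3. Whether libraries share animals or material was not tested. Shared 50-base windows and exon overlap were computed from GENCODE M21 transcripts, and promoters came from RefSeq (GRCm38.p6). Intervals and floors of counts cover counting error only.

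Groups and replicate numbers came from sample titles and genotype labels. The members and the gene lists were chosen with earlier results of these data known. All subunit genes could be named, and from each list up to 4 genes past the threshold with the largest differences. The uncalled regulators and mt-Atp8 were named after their values were seen. Pseudocount, filter, scaling, variance model, a replicate block and left-out libraries were varied, and leaving out replicate 3 of both groups was added after seeing the data. A gene of complex I counted among the lower calls is not reported here by itself.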

Additional observations from a re-analysis of the deposited data

How the results depend on the processing

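The 21 lower and 2 higher calls among the subunit genes, and their median of -0.20, were recomputed under 18 alternatives. With no filter beyond a value above 0 there were 1 higher and 18 lower, and with no variance trend 1 higher and 19 lower. Of all genes 7.25% were higher and 5.91% lower without the filter, and 16.1% and 15.6% without the trend. Own-total scaling gave 26 higher and 1 lower with a median of 0.19, and quantile normalization 8 higher and 18 lower with a median of -0.11. With Ins1, Ins2, Iapp and the mitochondrial genome left out of the total there were 2 higher and 22 lower, with a median of -0.21. Without labelled knockout replicates 2 and 3 the median was -0.22, against 0.01 over all genes. That fit assumes that the lone labelled knockout library varies like the flox/flox group. With replicate 3 of both groups left out, an alternative chosen after seeing the data, there were 1 higher and 1 lower. Leaving out 1 library at a time gave 1 to 3 higher, 10 to 19 lower and medians of -0.23 to -0.15. Of all genes 9.45% to 14.5% were then higher and 9.73% to 14.7% lower. Lower calls of single genes turned positive under own-total scaling only: Ndufs8 (0.0687), Ndufv1 (0.11), Ndufs7 (0.060), Ndufb7 (0.0696), Atp5h (0.11), Atp5d (0.11), Atp5j (0.0489), Atpif1 (0.16), Cox6c (0.13), Ndufaf8 (0.021), Dmac2 (0.019) and Foxred1 (0.0182). The fits with left-out libraries also have less power, and own-total scaling moves every gene together. What caused the changes in any of these fits was not tested. The replicate numbers did not meet the limit for pairing (correlations of deviations of 0.0811, 0.0751 and 0.0423 for same-numbered libraries, each library correlating best with its own number). With the replicate block 22 subunit genes were lower and 2 higher, with a median of -0.20, where 16.2% of all genes were lower and 16% higher. Every called subunit gene had at least 939 reads in all, and Ndufs3, with 3, could not be tested.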
